A study of Mus musculus with 4 samples.

Results

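The genes described here handle iron and heme in the mouse kidney. They are 9 of the 32285 genes in the count tables, chosen by name, with earlier results of these data known, and matched by gene symbol. All 9 were found: Hmox1, Fth1, Ftl1, Slc40a1, Cp, Tfrc, Trf, Slc11a2 and Hp. Iron reaches cells bound to transferrin (Trf), enters through the transferrin receptor (Tfrc), and crosses the membrane of the endosome or the cell through the metal transporter DMT1 (Slc11a2). It is stored in ferritin, a shell of heavy (Fth1) and light (Ftl1) chains, and leaves through ferroportin (Slc40a1), the known exporter of cellular iron. Ceruloplasmin (Cp) oxidises the iron that leaves, haptoglobin (Hp) binds free hemoglobin in plasma, and heme oxygenase 1 (Hmox1) opens the heme ring and releases its iron. The proximal tubule takes up filtered iron and heme proteins, and heme oxygenase 1 and ferritin heavy chain are known as protective proteins of the injured tubule.

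RNA was counted by position in 10 µm sections of left kidneys from male wild-type C57BL/6J mice of 7 to 8 weeks. The 2 normal sections came from control kidneys, and the 2 ischemic sections were taken 24 h after 30 min of ischemia of both kidneys followed by reperfusion. Each section covered its own capture area of a single slide, and tissue lies over an array of spots that each catch RNA from several cells. Which mouse each section came from is not stated in the labels or methods. The p-values below therefore measure the spread between these sections, which may be technical. In the tests by kidney zone, the zone sums of a section counted as independent of each other, although they share that section.

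The sections held 2401 to 2682 tissue spots (10312 in all) and 25957128 to 44528078 counted RNA molecules (unique molecular identifiers, UMIs), with median values of 8656 to 16162.5 UMIs per spot. The injury labels held: Havcr1, the kidney injury molecule, stood at 1.17 and 2.14 counts-per-million (CPM) in the normal and 1287 and 1279 CPM in the ischemic sections. Spots were assigned to the cortex, outer stripe, inner stripe, inner medulla or pelvis by the highest score among lists of marker genes. In the ischemic sections the inner medulla label was weak. There 2 of 14174 genes (0.0141%) differed between spots labelled inner medulla and inner stripe, against 17.8% in the normal sections. Cryab, a gene of the inner medulla list, reached 6147 and 6163 CPM in the ischemic outer stripe. The pelvis label was doubtful as well. The 6 pelvis genes summed to 4986 and 5413 CPM in normal and 657 and 919 CPM in ischemic pelvis spots. Scored without neighbouring spots, the ischemic pelvis held 30 and 38 spots in place of 106 and 130 (normal 119 and 127 in place of 131 and 135). Changes given below for the inner medulla and pelvis may therefore compare unlike tissue. The lists of other zones were also lower in spots of their own label. Cortex genes summed to 6475 and 5781 CPM in normal and 1272 and 1293 CPM in ischemic sections. Outer stripe genes went from 4720.5 and 3854 to 486 and 514 CPM, and inner stripe genes from 12110 and 13219.5 to 5902 and 6006 CPM. Scored without neighbouring spots, 67.1% and 69.0% of ischemic spots kept their zone (normal 73.8% and 76.3%). Whether the other zones compare like tissue was not tested. Fat-rich spots, those with at least 5 counts of Adipoq, Plin1 and Cidec in the spot and its neighbours, were 121 and 54 of the normal spots and 0 of the ischemic spots. In normal section 1 they made up 42.5% of the spots labelled inner medulla and 23.7% of those labelled pelvis (9.38% and 6.67% in normal section 2). Values of the normal inner medulla and pelvis below include these spots unless given without them. Spots with at least 1 count of these fat genes were 504 and 202 of the normal and 611 and 484 of the ischemic spots. Leaving these out, as in some alternatives below, therefore removes ischemic spots as well.

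Several of these mRNAs carry an iron-responsive element, a short hairpin bound by the iron regulatory proteins. In the 5′ untranslated region (UTR) it is known to hold back translation when iron is low, and in the 3′ UTR of Tfrc it is known to keep the mRNA from being degraded. A search of annotated UTRs for the loop CAGTGN, closed by 5 base pairs, a bulged C and at least 3 of 5 further pairs, found it in 4 of the 9 genes, against 44 of 21901 protein-coding genes (0.201%). Of the 44, 9 held it in a 5′ UTR and 35 in a 3′ UTR. The pattern is that of the known element, and the genes were chosen by name for iron handling. Matches among them were therefore foreseeable, and 4 of 9 is a description and not an independent result. They run 5′ to 3′ on the coding strand, with the 6 bases of the loop in capitals. Positions are on GRCm38, from GENCODE transcripts, at chr19:9982732-9982760 (plus strand) for Fth1, chr7:45459779-45459807 (minus strand) for Ftl1, chr1:45925465-45925493 (minus strand) for Slc40a1, and chr16:32631219-32631247, chr16:32631598-32631626, chr16:32631663-32631691 and chr16:32631710-32631738 (plus strand) for hairpins a to d of Tfrc.
Fth1 5′ UTR: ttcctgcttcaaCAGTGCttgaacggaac
Ftl1 5′ UTR: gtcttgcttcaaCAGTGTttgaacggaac
Slc40a1 5′ UTR: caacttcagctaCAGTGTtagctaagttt
Tfrc 3′ UTR, hairpin a: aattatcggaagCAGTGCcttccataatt
Tfrc 3′ UTR, hairpin b: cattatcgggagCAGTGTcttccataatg
Tfrc 3′ UTR, hairpin c: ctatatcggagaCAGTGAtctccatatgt
Tfrc 3′ UTR, hairpin d: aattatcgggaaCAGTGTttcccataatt
The stem next to the loop was the same 5 bases in Fth1 and Ftl1 on both sides, while Slc40a1 had a different stem, and Tfrc carried 4 hairpins, all in its 3′ UTR. A match describes these letters and is not a measured binding site. The absence of a match says only that these letters were not in the window, and the counts below measure mRNA, not protein.

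The first comparison asked how each gene differed between ischemic and normal sections. Counts were summed over all spots of a section. Each gene was then tested by the quasi-likelihood method of edgeR, with p-values adjusted by the Benjamini-Hochberg method over all 15305 genes tested and a threshold of 0.05. Levels are CPM after scaling by the trimmed mean of M-values (TMM), and each fold change carries its standard error (SE) on the log2 scale with n = 2 sections per condition. Of the 9 genes, 5 rose in the ischemic sections (Hmox1, Cp, Tfrc, Fth1 and Slc40a1), 2 fell (Slc11a2 and Hp), and 2 did not pass (Ftl1 and Trf). Over all genes the test called 60.6%, 31.0% higher and 29.7% lower, so a call was common in these sections and 7 of 9 says little by itself. In such sums, fewer cells that express a gene and less RNA per cell cannot be told apart.

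**Figure D1:**
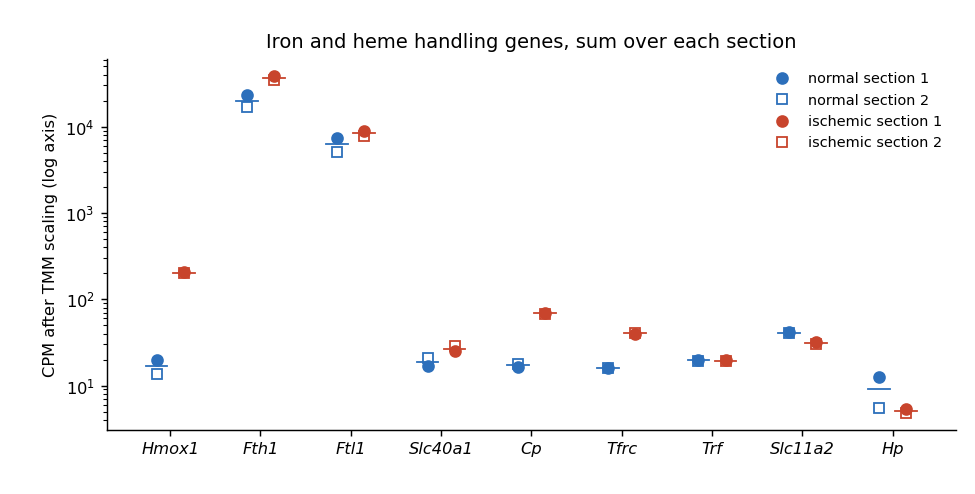
CPM after TMM scaling (log axis) of each gene summed over each section, with filled circles for section 1, open squares for section 2 and a line for the mean of each condition. Hmox1 (13.8 to 19.996 against 199 to 206 CPM) and Cp (16.3 to 17.9 against 68.2 to 68.8 CPM) stand furthest apart between conditions, and Trf lies between 19.0 and 19.9 CPM in all 4 sections.

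Hmox1 showed the largest change among the 9 genes. It stood at 19.996 and 13.8 CPM in the normal sections (738 and 380 UMIs) and at 206 and 199 CPM in the ischemic sections (6992 and 5704 UMIs). Both ischemic sections lay far above both normal sections, an 11.9-fold rise (log2 fold change 3.58 ± 0.18, adjusted p = 5.47e-07). The share of spots with at least 1 UMI of Hmox1 was 22.5% and 12.8% in the normal sections, against 65.2% and 54.7% after ischemia. After each spot was thinned to 2000 UMIs, so that depth was equal, the shares were 3.54% and 3.002% against 28.6% and 26.8%.

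The rise of Hmox1 was present in all 5 zones. In the cortex it went from 28.4 and 21.0 to 301 and 288 CPM (11.8-fold, log2 3.57 ± 0.23). In the outer stripe it went from 20.2 and 14.4 to 304 and 334 CPM (18.3-fold, 4.19 ± 0.24). In the inner stripe it reached only 34.1 and 40.1 CPM, from 15.3 and 7.60 CPM (3.09-fold, log2 1.63 ± 0.27, adjusted p = 7.14e-05). With zones scored without neighbouring spots this log2 change was larger, at 2.99. The ischemic inner medulla held 55.3 and 44.0 CPM, against 11.3 and 4.74 CPM in normal sections (6.73-fold). The ischemic pelvis held 101 and 79.0 CPM, against 5.55 and 9.14 CPM (11.9-fold, or log2 3.58 ± 0.35). With zones scored without neighbouring spots the log2 change in the pelvis was 1.91. Cortex and outer stripe were the highest zones in the ischemic sections, and the step between them did not pass (adjusted p = 0.719), while the step from cortex down to pelvis passed the test (log2 difference 1.71 ± 0.23, adjusted p = 1.24e-05). Of all Hmox1 UMIs in the ischemic sections, 50.5% and 43.7% lay in the cortex, which held 40.5% and 35.8% of all UMIs. Another 42.3% and 48.3% lay in the outer stripe, which held 32.9% and 33.4% of all UMIs. In the normal sections the mean level fell in order from cortex to pelvis, although in normal section 2 the pelvis lay above the inner stripe and inner medulla, and no neighbouring pair in that order passed the test.

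The change of Hmox1 in the inner stripe was smaller than in the cortex when the difference itself was tested (log2 difference of changes -1.94 ± 0.36, adjusted p = 0.00108). For this kind of contrast the test called 11.1% of all genes for the inner stripe, 11.7% for the outer stripe and 7.25% for the inner medulla. The difference did not pass without ischemic section 1 (-1.78, adjusted p = 0.122) or 2 (-2.08, adjusted p = 0.0748), and it was smaller when zones were scored without the neighbouring spots (-0.52, adjusted p = 0.459). The summed level of 5 red blood cell genes, all of them lower in ischemic sections, was 10744 and 9069 CPM in normal and 699 and 1465 CPM in ischemic sections. That of 7 macrophage and monocyte genes was 185 and 214 against 142 and 141 CPM, with 1 gene higher and 4 lower. No gene of either list was at 0 in any section, and the part of these cells in the Hmox1 result was not tested.

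**Figure D2:**
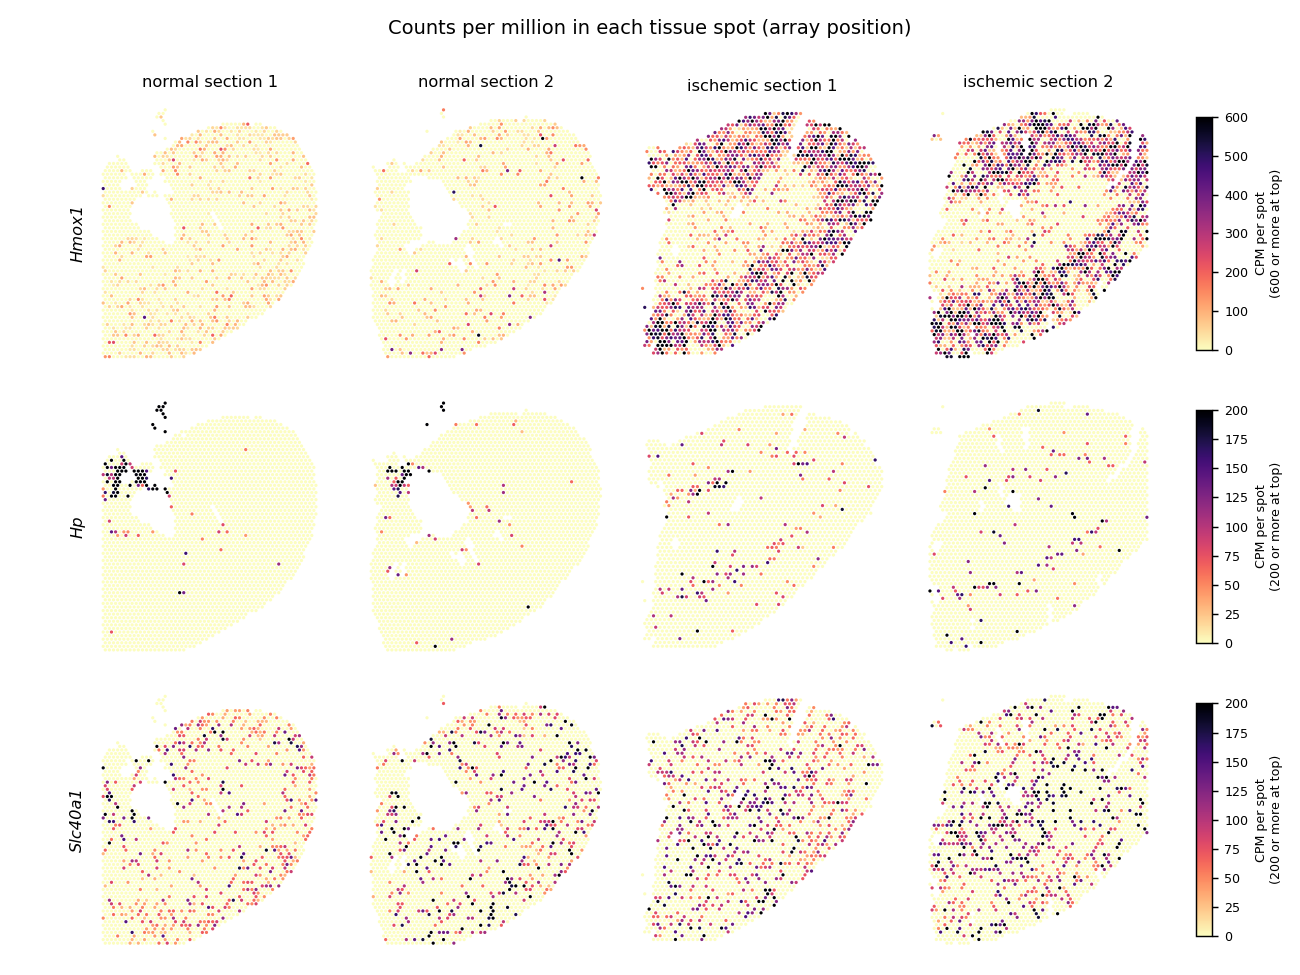
CPM of Hmox1, Hp and Slc40a1 in every tissue spot of the 4 sections, drawn at the spot's place on the array, with the colour scale ending at 600 CPM for Hmox1 and 200 CPM for the other genes. Hmox1 fills an outer band of the ischemic sections, Hp is dense in a few groups of spots at the edge of the normal sections and scattered along an inner band in the ischemic sections, and Slc40a1 is spread over all sections.

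Of the ferritin chains, the heavy chain passed the test and the light chain did not. Fth1, the heavy chain with the ferroxidase site, stood at 22976 and 16842 CPM in normal and at 38523 and 34753 CPM in ischemic sections. The conditions did not overlap, and Fth1 rose 1.84-fold (log2 0.88 ± 0.31, adjusted p = 0.0328). Among the alternatives run, this call was lost more often than those of the other rises: without ischemic section 1 (0.82, adjusted p = 0.475), without ischemic section 2 (0.96, adjusted p = 0.417) and without spots with 1 or more counts of the fat genes (0.72, adjusted p = 0.0843). Ftl1, the light chain, stood at 7424 and 5099 CPM in normal and at 9019.8 and 7728 CPM in ischemic sections. The sections did not overlap for Ftl1 either, as was true of 82.2% of all genes, but the difference did not pass (1.34-fold, log2 0.42 ± 0.25, adjusted p = 0.180). The log2 change of Ftl1 was 0.72 without normal section 1 and 0.14 without normal section 2. It passed when library totals were used without TMM scaling (0.71, adjusted p = 1.89e-04). It also passed as the equal-weight mean of the changes in 4 zones (0.38, adjusted p = 0.00374). Without spots with 1 or more counts of the fat genes it was 0.22 (adjusted p = 0.505). Near-identical copies of ferritin genes exist in the genome. The labels and methods do not state how reads were divided among them, so both levels are uncertain to that extent.

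By zone, Fth1 passed in 3 of 5 zones and Ftl1 in 1. Fth1 rose in the cortex, from 24578 and 19313 to 60282 and 56688 CPM (2.66-fold, log2 1.41 ± 0.28, adjusted p = 4.57e-04). It also rose in the inner medulla, from 11132 and 6711 to 21329 and 18478 CPM (2.23-fold, adjusted p = 0.00302), and in the pelvis, from 9397 and 6136 to 22080.4 and 15474 CPM (2.42-fold, adjusted p = 0.00235). The inner medulla call was lost without ischemic section 1 (adjusted p = 0.0961) or 2 (0.0527), with log2 0.76 in place of 1.16 with zones scored without neighbouring spots. The pelvis call was lost without ischemic section 1 (0.161) and with zones scored without neighbouring spots (log2 0.51, adjusted p = 0.180). In the outer stripe Fth1 was already high in normal sections, at 32275 and 26025 CPM, and stood at 39931 and 38562 CPM in ischemic sections (log2 0.43 ± 0.27, adjusted p = 0.191). In the inner stripe the normal sections lay apart, at 23587 and 12629.6 CPM, with 21262 and 21016 CPM after ischemia between them. Ftl1 rose in the outer stripe alone among the 5 zones, from 6282 and 4727 to 10156 and 9077 CPM (1.75-fold, log2 0.80 ± 0.21, adjusted p = 0.00322), a call lost without either ischemic section (adjusted p = 0.103 and 0.0546). Without TMM scaling that rise was 1.22 on the log2 scale. For neither chain did the change differ between the cortex and another zone past the threshold, the nearest being Fth1 in the inner stripe (-1.19 ± 0.39, adjusted p = 0.0541).

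In normal sections Fth1 was highest in the outer stripe and Ftl1 in the cortex. For Fth1 the steps from outer stripe to cortex and from cortex to inner stripe did not pass, and the step to the inner medulla passed (1.02 ± 0.28, adjusted p = 0.0155). For Ftl1 the step from cortex to outer stripe passed (0.82 ± 0.21, adjusted p = 0.0113), and lower steps did not. In ischemic sections both were highest in the cortex, and the steps that passed were that from the outer stripe to the inner stripe for Fth1 (0.89 ± 0.27, adjusted p = 0.0161) and that from the outer stripe to the pelvis for Ftl1 (0.99 ± 0.21, adjusted p = 0.00312). The calls of these 4 steps were lost without ischemic section 1 or 2. The 2 steps in normal sections use no ischemic counts. Leaving out an ischemic section acts on them only through terms shared by all sums, such as the estimate of the spread. With each section left out in turn, Fth1 in the normal inner medulla against the inner stripe was -1.08 to -0.95. Ftl1 in the normal outer stripe against the cortex was -0.87 to -0.77.

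**Figure D3:**
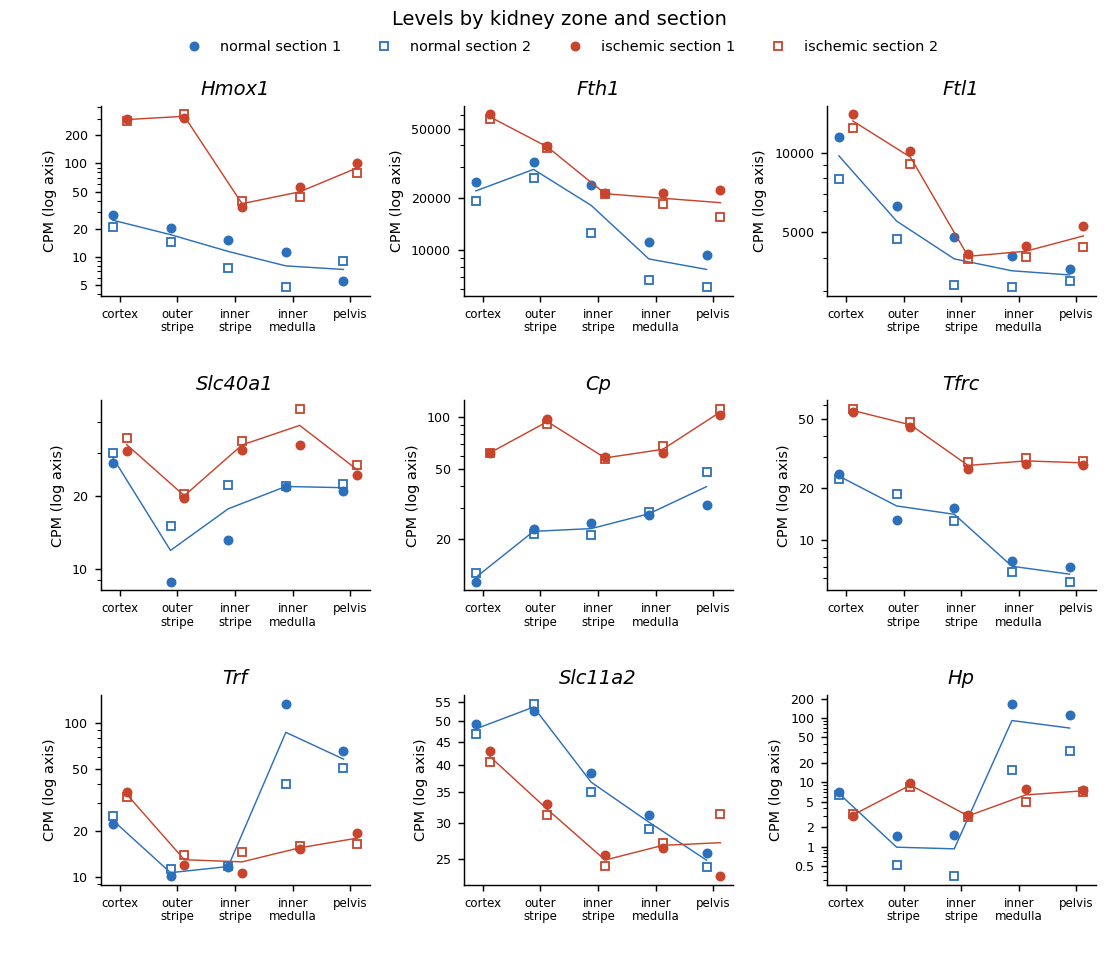
CPM after TMM scaling (log axes, scale differs by gene) of each gene in 5 kidney zones, with a point for each section and a line through the mean of each condition. Hmox1 in ischemic sections drops from 304 and 334 CPM in the outer stripe to 34.1 and 40.1 CPM in the inner stripe, and Hp and Trf are highest in the normal inner medulla and pelvis, the zones with the highest shares of fat-rich spots.

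Of the export genes, both Slc40a1 and Cp rose after ischemia. Slc40a1, ferroportin, stood at 17.0 and 20.7 CPM in normal and at 25.0 and 28.4 CPM in ischemic sections, without overlap, a 1.42-fold rise (log2 0.51 ± 0.12, adjusted p = 0.00561) that did not pass without ischemic section 2 (0.42, adjusted p = 0.0590). By zone, the rise passed in the medulla. It was 1.71-fold in the outer stripe (8.83 and 14.9 to 19.6 and 20.4 CPM, log2 0.77 ± 0.21, adjusted p = 0.00394), 1.91-fold in the inner stripe (13.1 and 22.1 to 30.9 and 33.7 CPM, 0.93 ± 0.23, adjusted p = 0.00247) and 1.77-fold in the inner medulla (21.7 and 21.9 to 32.4 and 45.4 CPM, adjusted p = 0.0277). In the cortex, where normal levels were highest at 27.3 and 30.0 CPM, ischemic sections held 30.4 and 34.4 CPM, and the difference did not pass (0.18 ± 0.18, adjusted p = 0.454). The difference between the zone changes themselves did not pass in the outer stripe (0.60 ± 0.27, adjusted p = 0.181), inner stripe (adjusted p = 0.111) or inner medulla (adjusted p = 0.276).

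The outer stripe call of Slc40a1 was lost without normal section 1 (log2 0.30), ischemic section 1 (0.81) or ischemic section 2 (0.74). Without normal section 2 the rise was 1.17 on the log2 scale. The inner stripe call was lost without ischemic section 2, and without normal section 1 the rise was 0.57 on the log2 scale. The inner medulla call was lost without either ischemic section (adjusted p = 0.0549 and 0.285) and without the fat-rich spots (0.67, adjusted p = 0.104) or with spots of a clear zone margin (0.68, adjusted p = 0.0960). Macrophages and monocytes are known for their ferroportin. Their 7 genes summed to 146 and 144 CPM in the ischemic outer stripe, against 246 and 240 CPM in the normal one. In the inner stripe the sums were 209 and 214 CPM in ischemic against 296 and 286 CPM in normal sections. Over whole sections 4 of the 7 genes were lower, but Cd68 was higher (log2 2.25 ± 0.12, adjusted p = 9.53e-07). Whether these cells were fewer, and their part in the Slc40a1 level, was not tested.

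Cp rose in the section sums and in every zone. It went from 16.3 and 17.9 CPM in normal to 68.8 and 68.2 CPM in ischemic sections, 4.01-fold (log2 2.00 ± 0.10, adjusted p = 5.72e-07). The share of spots with at least 1 UMI went from 18.7% and 15.03% to 50.1% and 42.4%. It rose in all 5 zones. The rise was 5.17-fold in the cortex (11.4 and 12.8 to 62.6 and 61.9 CPM) and 4.24-fold in the outer stripe (22.9 and 21.3 to 96.8 and 91.3 CPM). In the inner stripe it was 2.51-fold (24.8 and 21.1 to 59.1 and 57.4 CPM), in the inner medulla 2.33-fold (27.3 and 28.4 to 62.5 and 67.9 CPM) and in the pelvis 2.64-fold (31.2 and 48.5 to 103 and 111 CPM). The cortex was lowest in normal sections, with the outer stripe above it by 0.88 ± 0.15 on the log2 scale (adjusted p = 2.46e-04). In ischemic sections its difference from the inner medulla was 0.07 ± 0.14 and did not pass (adjusted p = 0.730). The change was smaller than in the cortex in the inner stripe (-1.04 ± 0.21, adjusted p = 0.00222) and the inner medulla (-1.15 ± 0.24, adjusted p = 0.00482), and neither difference passed without ischemic section 1 (adjusted p = 0.157 and 0.226) or 2 (0.159 and 0.160). The inner stripe difference also did not pass without normal section 1 (-0.71, adjusted p = 0.0515) or with zones scored without neighbouring spots (-0.83, adjusted p = 0.0691), nor the inner medulla difference with spots of a clear zone margin (-0.98, adjusted p = 0.0544).

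**Figure D4:**
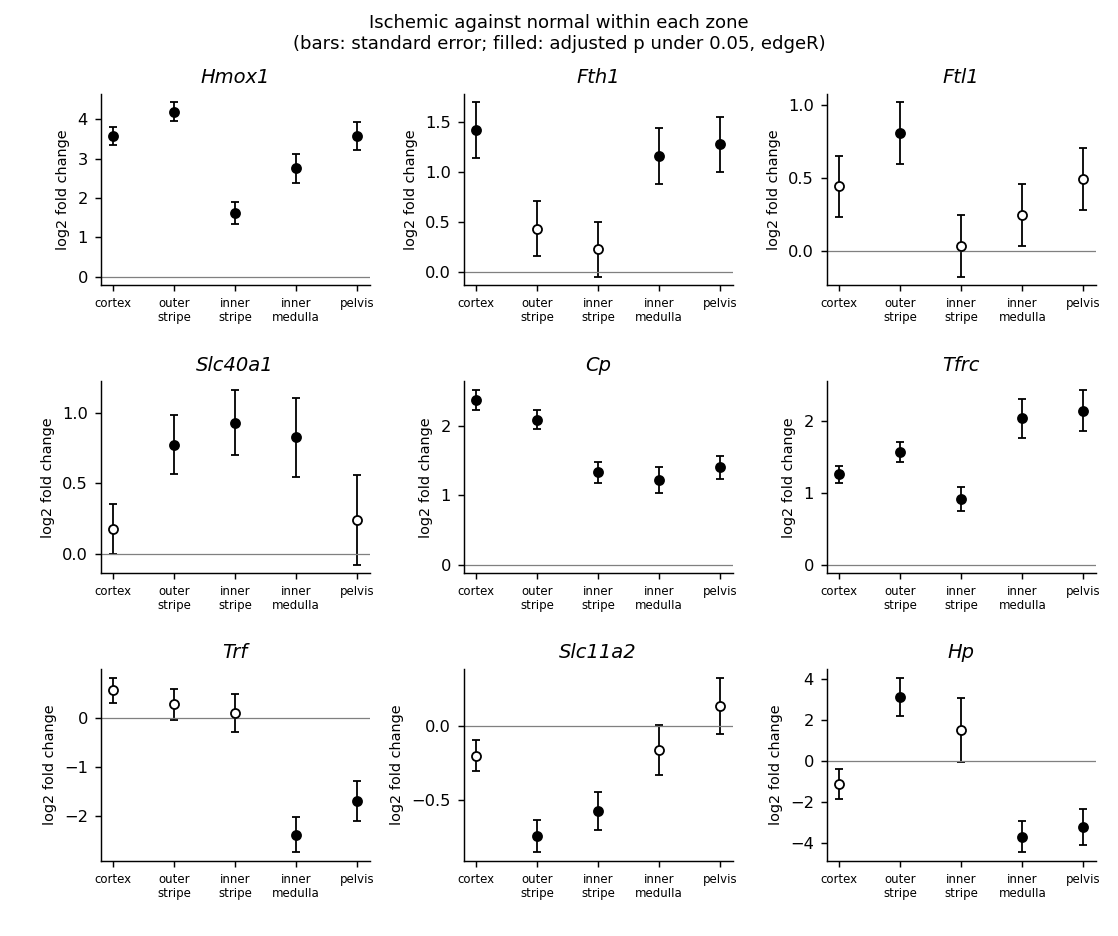
Log2 fold change of ischemic against normal sections in each zone, with bars of 1 standard error and filled points where the adjusted p was under 0.05 (edgeR, over all genes). Hmox1, Cp and Tfrc have filled points above 0 in all 5 zones, while Trf and Hp have filled points below 0 in the inner medulla and pelvis only.

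Among the uptake genes, Tfrc rose, Slc11a2 fell and Trf did not pass. Tfrc, which brings transferrin-bound iron into the cell, stood at 16.2 and 15.9 CPM in normal and at 39.6 and 40.7 CPM in ischemic sections, a 2.50-fold rise (log2 1.32 ± 0.09, adjusted p = 3.55e-06). The sections of a condition lay close together. It rose in all 5 zones. In normal sections its level ran from 24.2 and 22.6 CPM in the cortex to 6.94 and 5.71 CPM in the pelvis, and in ischemic sections from 54.97 and 57.1 CPM to 27.0 and 28.7 CPM. The rise was 2.39-fold in the cortex, 2.98-fold in the outer stripe, 1.89-fold in the inner stripe, 4.12-fold in the inner medulla and 4.43-fold in the pelvis (adjusted p at most 1.93e-04), and none of the changes in the outer stripe, inner stripe and inner medulla differed from that in the cortex past the threshold. In the inner medulla the rise was 1.18 instead of 2.04 on the log2 scale when zones were scored without neighbouring spots.

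Slc11a2 stood at 42.2 and 40.2 CPM in normal and at 31.7 and 30.1 CPM in ischemic sections. It fell without overlap (0.750-fold, log2 -0.41 ± 0.09, adjusted p = 0.00377), but the call was lost without ischemic section 1 (-0.44, adjusted p = 0.0542) or 2 (-0.37, adjusted p = 0.107) and without TMM scaling (-0.14, adjusted p = 0.370). By zone, the fall passed in the outer stripe, from 52.7 and 54.6 to 33.0 and 31.1 CPM (log2 -0.74 ± 0.11, adjusted p = 1.10e-05), and the inner stripe, from 38.6 and 34.9 to 25.5 and 24.1 CPM (-0.57 ± 0.13, adjusted p = 0.00125). The inner stripe call was lost without ischemic section 2 (adjusted p = 0.0559) and with spots of a clear zone margin (-0.38, adjusted p = 0.0641). Without TMM scaling neither zone passed (-0.35 and -0.21, adjusted p = 0.0640 and 0.321). In the cortex it stood at 49.3 and 46.8 against 43.0 and 40.7 CPM (-0.20 ± 0.11, adjusted p = 0.144). Its change in the outer stripe was below that in the cortex (-0.54 ± 0.15, adjusted p = 0.0262), a difference that did not pass without ischemic section 1 (adjusted p = 0.406) or 2 (0.379) or without the fat-rich spots (-0.41, adjusted p = 0.0933). It was also lost without TMM scaling (adjusted p = 0.355), without the filter on low counts (0.247), without spots with at least 1 count of the fat genes (0.130), with zones scored without neighbouring spots (0.0691) and with spots of a clear zone margin (0.0571). The outer stripe was the zone with the highest mean level of Slc11a2 in normal sections, a step from the cortex that did not pass (adjusted p = 0.395), and stood below the cortex in ischemic sections (0.38 ± 0.11, adjusted p = 0.0136), a step that did not pass without ischemic section 1 (adjusted p = 0.355) or 2 (0.332).

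Trf, the plasma carrier of iron made by the liver and other tissues, was the gene with the smallest change in the section sums, at 19.9 and 19.5 CPM in normal and 19.7 and 19.0 CPM in ischemic sections (log2 -0.02 ± 0.09, adjusted p = 0.850). These sums covered unlike zones. In the normal inner medulla Trf stood at 133 and 40.3 CPM and in the normal pelvis at 65.2 and 50.8 CPM, against 15.1 and 15.8 CPM and 19.4 and 16.3 CPM in ischemic sections, so it fell there (log2 -2.39 ± 0.36 and -1.69 ± 0.41, adjusted p = 3.95e-05 and 0.00504). The inner medulla fall was -1.32 without normal section 1, and the pelvis call was lost without ischemic section 1 (adjusted p = 0.0903) or 2 (0.125). In the cortex Trf stood at 22.0 and 24.7 CPM in normal and 35.8 and 32.9 CPM in ischemic sections (0.57 ± 0.25, adjusted p = 0.0845), and the change in the inner medulla lay below that in the cortex (-2.95 ± 0.44, adjusted p = 3.09e-04), a difference that did not pass without ischemic section 1 (adjusted p = 0.0960) or 2 (0.0595) and was -1.72 without normal section 1.

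The fat-rich spots held 38.1% and 17.5% of the Trf UMIs of the normal sections, and 2.66% and 1.56% of all their UMIs. There Trf stood at 235 and 218 CPM, against 10.5 and 16.3 CPM in the other spots of the same sections, before TMM scaling. When these spots were left out, Trf stood at 12.8 and 16.3 CPM in normal and 19.6 and 19.0 CPM in ischemic sections and the rise passed (1.33-fold, log2 0.41 ± 0.13, adjusted p = 0.0226). Without them the cortex rose from 16.5 and 19.8 to 35.2 and 32.4 CPM (0.91 ± 0.15, adjusted p = 6.70e-05). Spots labelled inner medulla (-0.96 ± 0.27, adjusted p = 0.0101) and pelvis (-1.04 ± 0.26, adjusted p = 0.00684) still held less Trf after ischemia. The inner medulla genes without Cryab summed to 5900 and 5605 CPM in normal and 1525 and 2098 CPM in ischemic spots labelled inner medulla. A change of the tissue under that label and a change of Trf cannot be told apart. Without the fat-rich spots the difference between the inner medulla and cortex changes was -1.87 (adjusted p = 8.77e-04). Without spots with at least 1 count of the fat genes the inner medulla fall did not pass (-0.67, adjusted p = 0.0876).

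Hp, the hemoglobin binder of plasma, changed direction in the section sums with the spots counted. It stood at 12.7 and 5.43 CPM in normal and at 5.36 and 4.81 CPM in ischemic sections, a fall by 0.85 ± 0.32 on the log2 scale (adjusted p = 0.0462). Normal section 2 lay just above ischemic section 1, and the fall rested on normal section 1: without it the change was -0.08 (adjusted p = 0.697), and without normal section 2 it was -1.35. It also did not pass without ischemic section 2 (-0.76, adjusted p = 0.0751), with DESeq2 (-0.88, adjusted p = 0.234), without TMM scaling (-0.52, adjusted p = 0.170) or as the equal-weight mean of 4 zones (-0.05, adjusted p = 0.957). In the normal sections 94.0% and 66.0% of all Hp UMIs lay in the fat-rich spots, at 372 and 230 CPM there and 0.646 and 1.87 CPM elsewhere.

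Without the fat-rich spots Hp rose. It then stood at 0.787 and 1.87 CPM in normal and 5.34 and 4.79 CPM in ischemic sections (3.91-fold, log2 1.97 ± 0.34, adjusted p = 0.00118). The same rise was seen when spots with at least 1 (2.18, adjusted p = 1.26e-04) or at least 20 (1.50, adjusted p = 5.26e-04) counts of the fat genes were left out, limits chosen after the data were seen. The summed level of the 5 fat cell genes was 308 and 122 CPM in normal and 3.86 and 3.45 CPM in ischemic sections. Fat-rich spots were found in the normal sections and in neither ischemic section, so fat tissue itself could not be compared between the conditions.

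**Figure D5:**
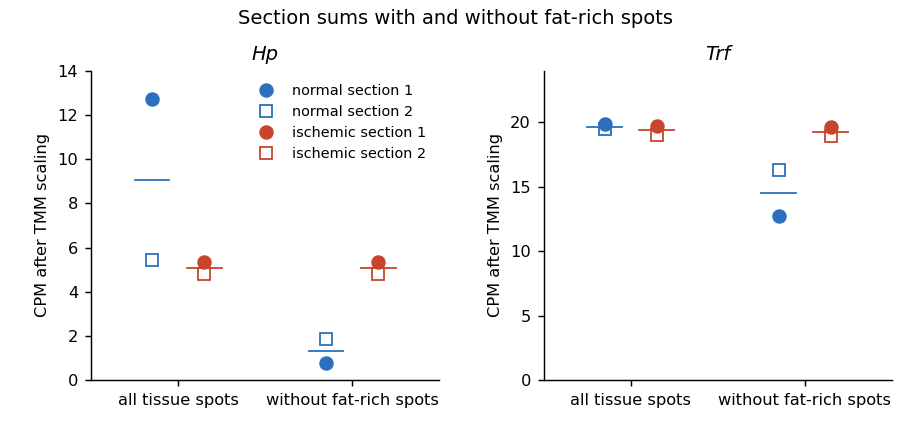
CPM after TMM scaling of Hp and Trf in the 4 section sums, over all tissue spots and without fat-rich spots, with a line for the mean of each condition (linear axes from 0). For Hp the normal sections move from above the ischemic sections, at 12.7 and 5.43 CPM, to below them, at 0.787 and 1.87 CPM, and for Trf from 19.9 and 19.5 to 12.8 and 16.3 CPM.

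The rise of Hp was largest in the outer stripe. There it went from 1.46 and 0.511 to 9.68 and 8.48 CPM over all spots (log2 3.10 ± 0.93, adjusted p = 0.00772) and from 0.647 and 0.494 to 9.99 and 8.78 CPM without fat-rich spots (15.7-fold, 3.97 ± 0.41, adjusted p = 9.91e-08). Over all spots these levels rested on 15 and 4 Hp UMIs in the normal and 94 and 70 in the ischemic outer stripe. The fold changes are imprecise for that reason. In the ischemic sections 51.6% and 50.7% of Hp UMIs lay in the outer stripe, which held 32.9% and 33.4% of all UMIs. Over all spots the outer stripe call was lost without either ischemic section (adjusted p = 0.0844 and 0.0581). Its change lay above that in the cortex (4.23 ± 1.19, adjusted p = 0.0265), a difference that did not pass without ischemic section 1 (adjusted p = 0.392) or 2 (0.309) and was 2.25 without the fat-rich spots (adjusted p = 0.0269). Without spots with at least 1 or at least 20 counts of the fat genes it did not pass (1.69 and 1.84, adjusted p = 0.102 and 0.0872). Without fat-rich spots the cortex (1.72 ± 0.41, adjusted p = 0.00211) and inner stripe (2.53 ± 0.69, adjusted p = 0.00476) rose as well, while the inner medulla (0.62 ± 0.59, adjusted p = 0.461) and pelvis (-0.59 ± 0.47, adjusted p = 0.398) did not pass.

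Over all spots Hp fell in the inner medulla, from 168 and 15.4 to 7.85 and 4.93 CPM (-3.69 ± 0.76, adjusted p = 9.50e-04), and in the pelvis, from 109.6 and 30.3 to 7.63 and 7.18 CPM (-3.20 ± 0.87, adjusted p = 0.0112). Without normal section 1 the falls were -1.19 and -1.97, without ischemic section 2 neither passed (adjusted p = 0.0579 and 0.176), and without ischemic section 1 the pelvis did not (0.171). The pelvis call was also lost with zones scored without neighbouring spots (-2.13, adjusted p = 0.165). The fat genes of the same zones summed to 3931 and 491 CPM in the normal inner medulla and to 2013 and 630 CPM in the normal pelvis, and to at most 1.39 CPM in the ischemic ones. In the ischemic outer stripe the 6 neutrophil genes, all higher in ischemic sections, summed to 333 and 338 CPM, against 1.94 and 1.66 CPM in the normal outer stripe, and their part in the Hp result was not tested. Mmp8, of this list, was at 0 in both normal sections. The 5 hepatocyte genes, which mark the main known source of plasma Hp and Trf, summed to 33.0 and 25.8 CPM in normal and 8.39 and 7.74 CPM in ischemic sections. Of these, Ahsg and Serpina3k had 0 to 2 UMIs in every section.

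By zone, the counts of called genes among the 9 were 4 higher and 0 lower in the cortex, where the test called 20.2% of all genes higher and 19.9% lower. In the outer stripe 6 were higher and 1 lower (27.4% and 29.5% of all genes), in the inner stripe 4 and 1 (22.2% and 25.9%), in the inner medulla 5 and 2 (13.9% and 21.2%) and in the pelvis 4 and 2 (10.7% and 14.6%). Across the 45 pairs of gene and zone this made 23 higher and 6 lower. Fewer pairs passed when either ischemic section was left out. The share over all genes in those fits is not given here, so the drop is not read as a trait of these genes.

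Within a condition, zones were also set against each other. Between pairs of zones, 56 of 90 pairs of gene and zones passed in the normal sections and 42 of 90 in the ischemic sections. Over all genes the same tests called 26.6% and 23.4% of such pairs. The genes were chosen with earlier results of these data known, so these counts are descriptions. Of the 56 normal pairs, 8 were of Trf and 6 of Hp, whose normal levels included the fat-rich spots. The lowest counts were 0 of 10 for Hp and 3 of 10 each for Trf and Slc40a1 after ischemia. Leaving out either ischemic section reduced the ischemic count, and the share over all genes in those fits is not given here. In the normal sections the cortex was the top zone for Hmox1, Ftl1, Tfrc and Slc40a1, the outer stripe for Fth1 and Slc11a2, the pelvis for Cp, and the inner medulla, with its fat-rich spots, for Trf and Hp.

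Over the 20 sums of a section and zone, the genes with the profile closest to each member were found among 10808 genes with a mean of at least 5 CPM, by the Pearson correlation of log2(CPM + 1). The points share sections, depth and zones, so the values are descriptions. Hmox1 was closest to Rbis (0.980) and to Txnrd1 (0.979), which encodes cytosolic thioredoxin reductase. Fth1 was closest to Cd63 (0.987), a tetraspanin of late endosomes, and Hacd1 (0.950), and Ftl1 to St13 (0.961) and Glud1 (0.955), the mitochondrial glutamate dehydrogenase. Tfrc was closest to Ap2m1 (0.976), a subunit of the adaptor that gathers transferrin receptor into coated pits, and to Fgg (0.956), the fibrinogen gamma chain, and Cp to Hnrnpa1 (0.974) and S100a11 (0.967). Slc11a2 was closest to Gucd1 (0.955) and Vdac1 (0.950), the outer mitochondrial membrane channel, and Slc40a1 reached 0.865 with Guca2a and 0.856 with Tceal8. Trf was closest to Fcor (0.956), a gene of fat cells, and Ptges (0.934), and Hp to Lmcd1 (0.898) and Car8 (0.875).

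The 9 genes belong to a list of 69 genes of iron and heme handling, of which 62 were tested. In the section sums 21 rose, 30 fell and 11 did not pass, with a median log2 fold change of -0.24, against 0.04 over all genes tested, of which 31.0% rose and 29.7% fell. Of the 53 tested genes other than the 9, 16 rose and 28 fell. Without TMM scaling the median over all genes was 0.31 and 18 genes of the list fell.

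By role, 6 of 18 uptake genes rose and 10 fell. The largest changes among those not listed above were rises of Steap1 and Cybrd1. Steap1, of a family of membrane metalloreductases, went from 3.03 and 3.66 to 39.9 and 41.7 CPM (log2 3.62 ± 0.12, adjusted p = 1.12e-07). Cybrd1, a ferrireductase, went from 0.244 and 0.0362 to 1.27 and 1.22 CPM (2.99 ± 0.51, adjusted p = 8.80e-04). Cybrd1 rested on only 9 and 1 UMIs in normal and 43 and 35 in ischemic sections, so its fold change is imprecise. Of 5 storage genes tested, 2 rose and 1 fell: Pcbp1, a cytosolic iron chaperone, rose slightly with Fth1 (154 and 141 to 178 and 187 CPM, 0.30 ± 0.12, adjusted p = 0.0494), and Ncoa4, the receptor that delivers ferritin for breakdown, fell (90.2 and 79.0 to 62.5 and 59.2 CPM, -0.48 ± 0.11, adjusted p = 0.00434). Of 3 export genes tested, Slc40a1 and Cp rose while Heph, a ferroxidase related to Cp, fell (6.85 and 8.00 to 4.74 and 4.57 CPM, -0.67 ± 0.16, adjusted p = 0.00526).

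Of 8 regulators tested, 4 rose and 2 fell. Bmp6, known as the iron-sensing signal of endothelium to the liver, rose from 18.8 and 17.5 to 41.6 and 38.4 CPM (1.14 ± 0.10, adjusted p = 1.29e-05), and Nfe2l2, which encodes NRF2, an activator of Hmox1 and ferritin genes, from 55.7 and 63.5 to 107 and 112 CPM (0.88 ± 0.11, adjusted p = 1.36e-04). Hamp, the hepcidin gene, was at 0.135 CPM in normal section 1 and at 0 in the others and was not tested. Of 9 heme synthesis genes, 1 rose and 6 fell, led by Alas2, the red cell form of the entry enzyme and itself in the red blood cell list (37.4 and 28.3 to 1.91 and 3.73 CPM, -3.57 ± 0.24, adjusted p = 3.34e-06), and Uros (14.8 and 17.3 to 7.21 and 6.52 CPM, -1.22 ± 0.13, adjusted p = 4.56e-05).

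Heme breakdown and transport split evenly, with 5 of 10 genes higher and 5 lower. Beside Hmox1, the largest changes were falls of Flvcr2 (11.6 and 9.38 to 1.35 and 1.26 CPM, -3.01 ± 0.19, adjusted p = 2.39e-06) and of Slc46a1, a transporter of folate and heme (35.1 and 27.8 to 11.9 and 13.5 CPM, -1.32 ± 0.13, adjusted p = 3.37e-05). Of 3 scavenging genes tested, Lrp1, a receptor for heme-loaded hemopexin, rose (40.1 and 49.8 to 95.9 and 88.6 CPM, 1.04 ± 0.12, adjusted p = 1.02e-04), and Hp fell over all spots. Of 6 iron-sulfur cluster genes, 4 fell and 0 rose, led by the scaffold Iscu (856 and 709.7 to 327 and 306 CPM, -1.31 ± 0.15, adjusted p = 8.61e-05) and the cysteine desulfurase Nfs1 (126 and 108 to 50.3 and 47.7 CPM, -1.26 ± 0.12, adjusted p = 2.02e-05).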

How the data were processed

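The deposited files hold unique molecular identifier counts per gene and spot, made by the authors with Space Ranger 1.3.0 (matrix headers) against mm10, per the submitters' processing notes. Counts were used as deposited, and all tissue spots were kept. The members and gene lists were chosen with earlier results of these data known. Genes were named by role: all 9 members, and for each role of the iron and heme list the 2 other genes with the largest absolute log2 fold change that passed and did not overlap between conditions. A zone was the highest of 4 marker scores, each the mean of log2(CPM + 1) over a spot and up to 6 neighbours, standardised within a section; pelvis spots reached 10 counts of the pelvis genes and the top 5% of their score. Zones with at least 20 spots were summed per section and fitted in 1 model over 14174 genes. It held a mean for each zone of each condition and no term for the section. Tests used edgeR 4.0.16 (R 4.3.3; TMM, filterByExpr, quasi-likelihood F test), with DESeq2 1.42.0 as an alternative, and were tested on simulated data. The SE is the log2 fold change divided by the square root of F. Iron-responsive elements were searched in GENCODE UTRs on GRCm38. Alternatives covered scaling, the low-count filter, mitochondrial genes, fat-rich spots, zone scoring, blocks and each left-out section. Precision is limited by 2 sections per condition and by UMIs per gene, and the counting error of spot shares excludes variation between animals. Spot barcodes are positions shared by all arrays (1833 to 2137 per pair of sections) and do not identify cells.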

Additional observations from a re-analysis of the deposited data

Results flagged for a closer look

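The change after ischemia differed from that in the cortex for 6 pairs of gene and zone among 27 tested (edgeR, test of the difference itself, adjusted over all genes), which is what put them here. The same contrasts called 11.7% of all genes for the outer stripe, 11.1% for the inner stripe and 7.25% for the inner medulla. Hmox1 rose less in the inner stripe, by -1.94 on the log2 scale. Cp rose less in the inner stripe (-1.04) and in the inner medulla (-1.15). Trf lay lower in the inner medulla (-2.95), where fat-rich spots were 42.5% and 9.38% of the normal and 0% of the ischemic spots, and the difference was -1.87 without them (adjusted p = 8.77e-04). The inner medulla label was also weak in the ischemic sections, so unlike tissue may be compared there. Slc11a2 fell more in the outer stripe (-0.54), and Hp rose there relative to the cortex (4.23), or by 2.25 without the fat-rich spots. Without ischemic section 1 or without ischemic section 2, none of the 6 passed the threshold, with adjusted p from 0.0595 to 0.406, while each kept its direction. Groups of 2 sections are too small for a search for single outlying sections.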

How the results depend on the processing

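Hmox1, Tfrc and Cp rose in the section sums under all 13 alternatives run, and Fth1, Ftl1, Slc40a1 and Slc11a2 kept their direction. Of 9 genes, the count that fell in the section sums (2) was 1 with DESeq2, without fat-rich spots, without spots with at least 1 or at least 20 counts of the fat genes, and as the mean of 4 zones, and 0 without TMM scaling. Without TMM scaling 2829 genes in all and 18 of the iron and heme list fell, against 4542 and 30, and calls split 67.0% higher against 51.1%. Leaving out each section in turn gave 3 to 6 of the 9 genes higher, 0 to 2 lower, 19 to 31 list genes lower, 2 to 7 of 45 falls within zones, 0 to 6 positive and 0 to 8 negative differences between zones of 27, and 14 to 52 of 90 zone pairs in ischemic sections. Where no cause is stated, the cause was not tested.

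The positive differences between zones (1) were 2 without TMM scaling, 5 without the filter on low counts, 4 with a block for each section, and 0 without spots with at least 20 fat gene counts. The negative ones (5) were 9 with the section block, 2 with zones scored without neighbours and 3 with spots of a clear zone margin, and the falls within zones (6) were 3 without spots with at least 1 fat gene count. Replicate numbers were shared by only 2 pairs of sections, whose deviations correlated at 0.219 across genes, so they were not taken as pairs: with the replicate block the positive differences were 3, the negative 7, and the 9 genes gave 5 rises and 2 falls.

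Directions turned in these cases, on the log2 scale. Hp in section sums became 1.97, 2.18 and 1.50 without fat-rich spots and at the limits of 1 and 20 counts, in the cortex 1.72, 2.39 and 1.26, and in the inner medulla 0.62 and 0.89 at the first 2. Trf in section sums, at -0.02, became 0.41, 0.36 and 0.35 in the same order, 0.25 without TMM scaling and 0.0011 without the low-count filter, and ranged from -0.064 to 0.012 with a section left out. The other turns were of values that had not passed. Ftl1 in the inner stripe became -0.0019 with DESeq2 and -0.24 to 0.39 with a section left out, and Fth1 there -0.16 to 0.77. Slc11a2 without TMM scaling became 0.021 in the cortex, 0.0079 in the inner medulla and -0.013 for the difference of these changes, and in the pelvis -0.0197 without fat-rich spots and -0.0160 at the limit of 20. With zones scored without neighbours Slc40a1 in the pelvis became -0.10, and the inner medulla differences of Tfrc and Slc11a2 -0.12 and -0.12, while Slc11a2 in the inner medulla became 0.12 with a clear zone margin. With a section left out, Trf in the inner stripe ranged from -0.13 to 0.32, Slc11a2 in the pelvis from -0.11 to 0.35 and its inner medulla difference from -0.0127 to 0.19, the Tfrc outer stripe difference from -0.0122 to 0.61, and the Fth1 inner medulla difference from -0.42 to 0.12.

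Counting depth was lowest for Hp, with 138 to 469 UMIs per section, and only 7 and 1 UMIs in the normal inner stripe. Where a section was left out, the lone section of its condition was assumed to vary like the others.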
